A study of Mus musculus with 6 samples.

Results

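RNA polymerase I is the nuclear enzyme that transcribes the ribosomal RNA genes, and 10 genes that encode 5 of its subunits and 5 of the factors that start transcription by it are described here in mouse neural stem cells given the microRNA miR-128. The genes are Polr1a, Polr1b, Polr1c, Polr1d, Polr1e, Rrn3, Ubtf, Taf1a, Taf1b and Taf1c. Members were every row whose RefSeq transcript carries one of these symbols, which gave 12 rows for 10 genes, out of 32025 rows and 20263 named genes. The set was selected on the values of the same comparison that is described here, since Polr1b was already known to stand among the rows that differed most, so the differences of its members are descriptions without a test.

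The miR-128 group was 3 cultures that received a mimic of miR-128, a synthetic RNA that acts as the mature microRNA. The miR-Control group was 3 cultures that received an RNA named miR-Control. All cells came from CD-1 albino mouse embryos at E14.5 and grew as neurospheres under proliferation conditions, and RNA was taken 72 h after nucleofection, an electrical transfection method. The submitters state that these cells normally lack miR-128 and call the 3 cultures of a group biological triplicates, with no word on whether they came from separate embryos. Each RNA was hybridised to an exon array, and the deposited log2 expression values of 6 arrays are used.

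In a growing cell, polymerase I makes the long precursor of the 18S, 5.8S and 28S ribosomal RNAs in the nucleolus. The factor SL1, made of the TATA-binding protein and the TAF1 proteins, and the HMG-box protein UBF, encoded by Ubtf, sit on the ribosomal DNA promoter. Polymerase I can start there only when bound to RRN3, also known as TIF-IA, whose activity follows growth factor and nutrient signals. Dividing neural progenitors depend on this output for new ribosomes.

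The microRNA is shown because it defines the comparison, and the promoters of Polr1b and Rrn3 because these were the only members whose groups did not overlap. The mature mouse miR-128-3p, from RefSeq on GRCm38.p6, is made from loci at chr1:128202404-128202424 (plus strand) and chr9:112118644-112118664 (minus strand), which give the same 21 bases. Capitals mark the seed, bases 2 to 8.
miR-128-3p: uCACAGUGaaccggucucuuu

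The RefSeq promoter windows hold 250 bases before and 50 after a transcript start on GRCm38.p6, and all 10 members matched, with 17 windows among them. Capitals mark 3 motifs searched on both strands: the E-box CACGTG, the ETS core CCGGAAG, and the binding element of the zinc finger factor ZNF143, written as ACTACA, any 2 bases and then TCCCA. The ZNF143 element was chosen after the Polr1b window had been read. The Polr1b window lies at chr2:129100746-129101045 (plus strand) and the Rrn3 window at chr16:13780449-13780748 (plus strand).
Polr1b: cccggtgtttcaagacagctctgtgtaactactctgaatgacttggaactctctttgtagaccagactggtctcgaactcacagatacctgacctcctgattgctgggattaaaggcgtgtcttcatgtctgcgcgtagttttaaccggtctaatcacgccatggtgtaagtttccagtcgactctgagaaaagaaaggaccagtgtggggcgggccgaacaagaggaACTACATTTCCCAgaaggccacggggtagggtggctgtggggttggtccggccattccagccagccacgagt
Rrn3: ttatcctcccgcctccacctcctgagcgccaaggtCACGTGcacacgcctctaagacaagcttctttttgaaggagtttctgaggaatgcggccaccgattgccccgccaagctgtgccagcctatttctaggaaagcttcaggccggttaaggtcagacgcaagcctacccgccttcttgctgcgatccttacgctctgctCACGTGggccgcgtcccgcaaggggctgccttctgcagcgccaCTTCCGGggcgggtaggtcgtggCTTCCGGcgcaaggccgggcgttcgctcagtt

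Both promoters held a marked motif, but not the same one. The match in Polr1b was not the result of a search, as its motif was chosen after that window had been read. The Polr1b window had 1 match to the ZNF143 element, from position -22 to -10 relative to the start, and none of the other motifs. This element occurred in 1.47% of all 32851 mouse promoter windows and in no window of the other members. The Rrn3 window had 2 E-boxes, which are the sequences bound by MYC and related factors and which 7.15% of windows hold, and it was the only member with one. It also had 2 ETS cores, a motif in 8.86% of windows, which occurred in 7 of the 17 member windows, those of Polr1c, Polr1e, Rrn3, Taf1a, Taf1b and Taf1c. A match describes these letters only and is not evidence of binding.

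One array stood apart before any comparison. On the first principal component, with 35.4% of the variance, miR-Control replicate 3 lay at 42.5 and the other 5 arrays between -18.7 and -0.226, so the counts of the gene lists are also given without it. Array number, 3 in each group, limits the precision, and the SE of a log2 fold change had a median of 0.13 over the rows. In limma 0 of 32025 rows, or 0%, were called at an adjusted p of 0.05, no member among them, and 2291 rows had an unadjusted p under 0.05. Of 10 neural stem cell markers 9 lay above the level of the median named gene in the controls, against 2 of 10 neuronal, 3 of 6 astrocyte, 3 of 7 oligodendrocyte lineage, 0 of 6 microglial and 3 of 8 vascular and mesenchymal markers. A value from a whole culture cannot tell fewer cells of a type from less RNA per cell.

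Nearly all of the polymerase I genes had a lower mean in the miR-128 arrays, but only Polr1b differed by a large amount. Of the 10 genes 9 were lower and 1, Taf1b, was higher, beside 43.8% lower among all named genes. The median log2 fold change was -0.18 over the 10 genes and 0.02 over all named genes. The median rested partly on single arrays: it was -0.10 when miR-128 replicate 1 was left out, and -0.09 when miR-Control replicate 2 was. The highest miR-128 array was below the lowest control for 2 of the 10 genes, Polr1b and Rrn3, beside 5.27% of named genes. As these genes were chosen by this comparison, nothing is read from those shares.

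**Figure D1:**
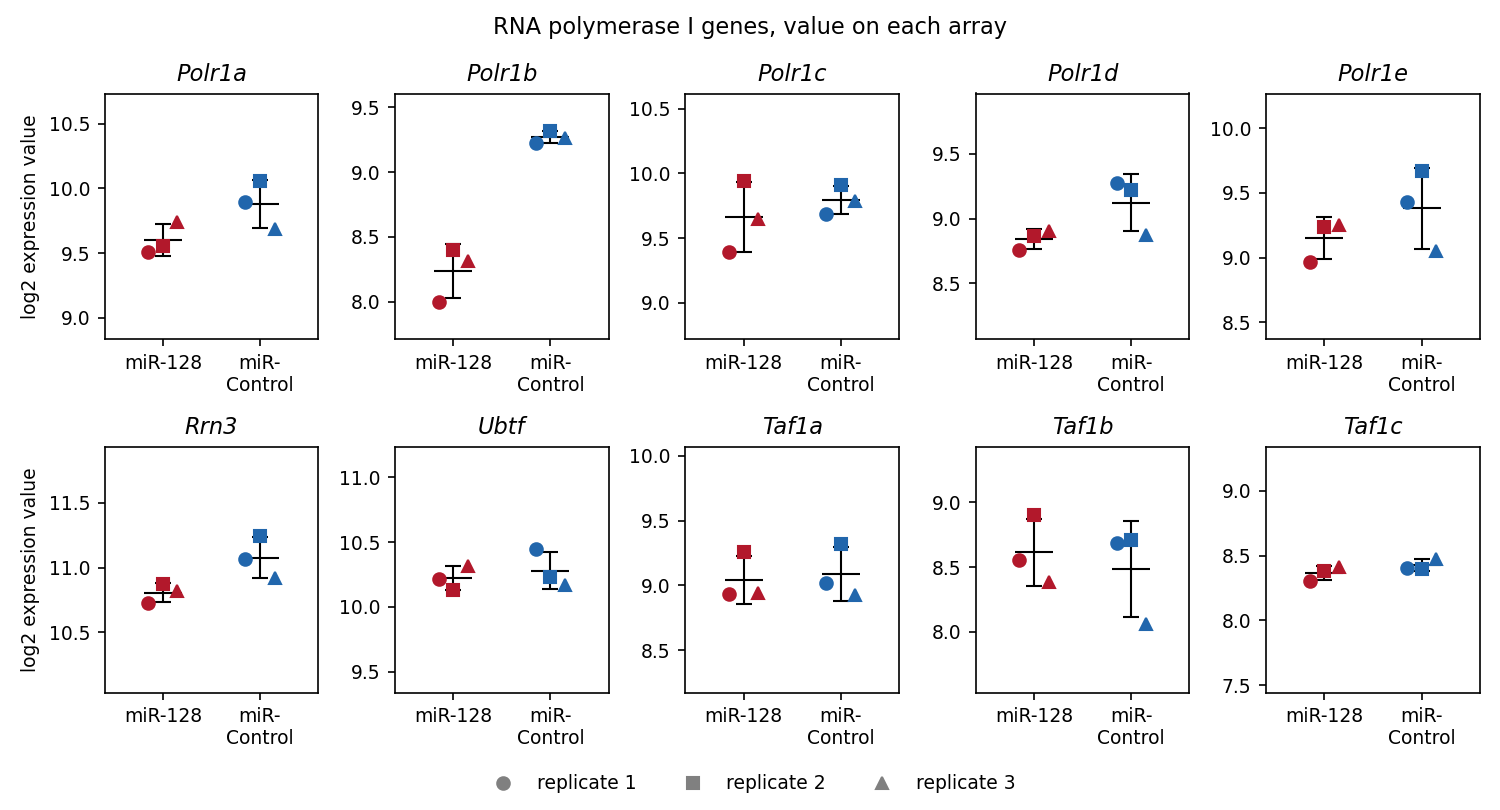
Each panel shows the log2 expression value of 1 gene on the 3 miR-128 arrays (red, left) and the 3 miR-Control arrays (blue, right), with symbols for the replicate number and a black bar for the mean ± SD of each group. All panels span the same log2 range around their own centre. In Polr1b the miR-128 arrays sit at 7.997 to 8.40 and the controls at 9.23 to 9.32, while 8 of the other 9 genes have groups that overlap.

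Polr1b encodes RPA135 (older name RPA2), the second-largest subunit, which forms the catalytic centre together with the largest. Its log2 values were 7.997, 8.40 and 8.32 in miR-128 replicates 1 to 3, against 9.23, 9.32 and 9.26 in miR-Control replicates 1 to 3. Every miR-128 array was below every control, with a gap of 0.83 between the nearest arrays, which is wider than the range of either group. The means were 8.24 ± 0.21 with miR-128 and 9.27 ± 0.05 with miR-Control (SD, n = 3 each), a log2 fold change of -1.03 (SE 0.13), or a 2.05-fold lower level. It ranked 7 from the lowest among the fold changes of 20263 named genes. Without miR-Control replicate 3 the log2 fold change was -1.04, and leaving out any other single array gave -1.11 to -0.91.

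Polr1a encodes RPA194, the largest subunit. It had 9.51, 9.55 and 9.74 in the miR-128 arrays, against 9.90, 10.06 and 9.69 in the controls. Only miR-Control replicate 3 reached into the miR-128 range, and by 0.05. The log2 fold change was -0.28 (SE 0.13), and -0.37 without miR-Control replicate 3. Thus both genes of the catalytic centre had a lower mean, in unequal amounts.

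Polr1e encodes PAF53, a subunit particular to polymerase I that pairs with PAF49 and takes part in recruiting the enzyme. Its values were 8.97, 9.24 and 9.25 with miR-128, against 9.43, 9.67 and 9.05 with miR-Control. The groups overlapped because miR-Control replicate 3 lay 0.33 below the control mean. The log2 fold change of -0.23 (SE 0.17) was -0.40 without that array, and it was -0.14 without miR-128 replicate 1 but -0.09 without miR-Control replicate 2, so its size depended on which culture was counted.

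Polr1c and Polr1d encode a pair of subunits, called AC40 and AC19 in yeast, that polymerase I shares with polymerase III, the enzyme for transfer RNA and 5S RNA. Polr1d had 8.76, 8.86 and 8.90 in the miR-128 arrays, against 9.28, 9.22 and 8.87 in the controls. Only miR-Control replicate 3 overlapped, by 0.03, and the log2 fold change was -0.28 (SE 0.13), or -0.41 without that array. Polr1c had 9.40, 9.94 and 9.65 with miR-128, against 9.69, 9.91 and 9.79 with miR-Control. Its miR-128 arrays spread over 0.54 and enclosed all 3 controls, and the log2 fold change of -0.13 (SE 0.15) was -0.00114 without miR-128 replicate 1.

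Among the initiation factors, Rrn3 was the one with separate groups. It had 10.73, 10.87 and 10.82 in the miR-128 arrays, against 11.07, 11.24 and 10.92 in the controls. The gap between miR-128 replicate 2 and miR-Control replicate 3 was 0.05, far narrower than in Polr1b. The means were 10.81 ± 0.07 with miR-128 and 11.08 ± 0.16 with miR-Control (SD, n = 3 each), a log2 fold change of -0.27 (SE 0.12), or a 1.21-fold lower level. Its fold change was -0.35 without miR-Control replicate 3.

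Ubtf, the gene of the promoter-bending factor UBF, differed little. Its higher row had 10.22, 10.13 and 10.32 with miR-128, against 10.44, 10.23 and 10.17 with miR-Control, and the groups were interleaved. The log2 fold change was -0.06 (SE 0.11), and the sign turned to 0.02 without miR-Control replicate 1. The other Ubtf row lay 0.07 to 0.08 lower on every array and gave the same -0.06, so the rows do not count as separate measurements.

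The 3 SL1 subunits gave no common direction. Taf1a, the smallest of them, had 8.93, 9.26 and 8.94 with miR-128, against 9.01, 9.32 and 8.92 with miR-Control, a log2 fold change of -0.04 (SE 0.14). Its sign turned to 0.01 when miR-128 replicate 1 was left out, likewise for miR-128 replicate 3 (0.00900), and to 0.07 without miR-Control replicate 2. Taf1b, which resembles the polymerase II factor TFIIB, had 8.56, 8.90 and 8.39 with miR-128, against 8.69, 8.71 and 8.06 with miR-Control, and its 2 rows were identical. Its log2 fold change of 0.13 (SE 0.20) rested on the low value of miR-Control replicate 3 and became -0.08 without it, -0.02 with array weights and -0.01 without miR-128 replicate 2. Taf1c had the narrowest range within each group, with 8.31, 8.38 and 8.41 with miR-128, against 8.41, 8.40 and 8.48 with miR-Control, and a log2 fold change of -0.06 (SE 0.10). That small difference was -0.03 when miR-128 replicate 1 was left out and -0.04 when miR-Control replicate 3 was.

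**Figure D2:**
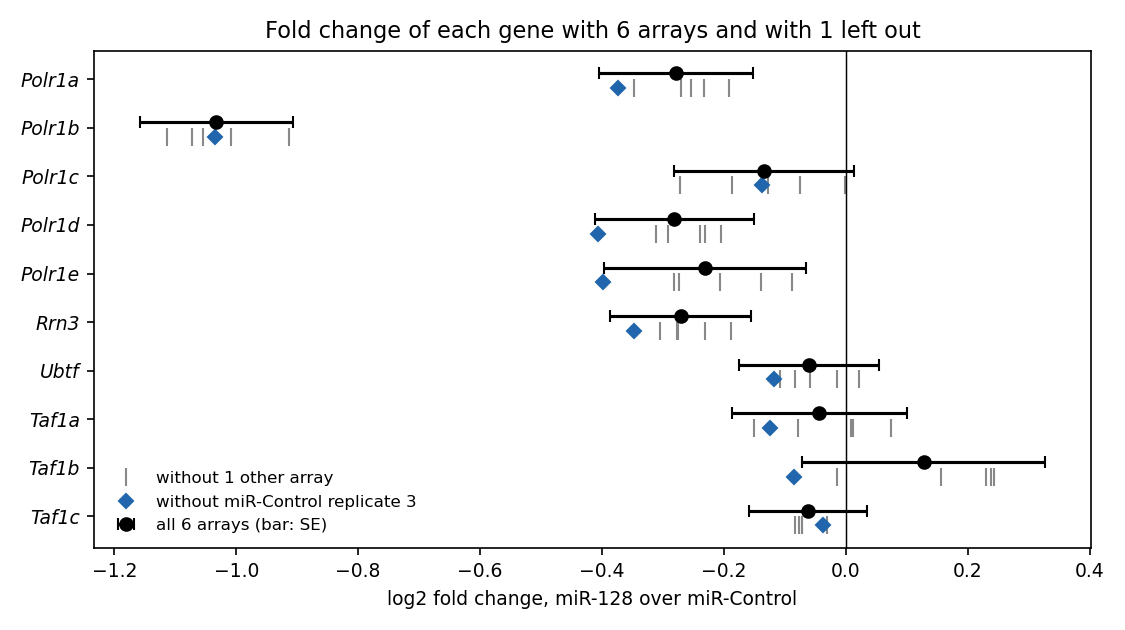
Log2 fold change (miR-128 over miR-Control) of each gene, with all 6 arrays as a black point with its SE, without miR-Control replicate 3 as a blue diamond, and without each of the other 5 arrays as grey ticks. Polr1b stays between -1.11 and -0.91, Polr1a, Polr1d, Polr1e and Rrn3 move to -0.37, -0.41, -0.40 and -0.35 when miR-Control replicate 3 is left out, and Taf1b changes sign.

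The arrays that set the spread were the same for many of these genes. miR-Control replicate 3 was the lowest control for 7 of the 10, miR-Control replicate 2 the highest for 7, and miR-128 replicate 1 the lowest miR-128 array for 8. Polr1b was not among the first of these: its controls covered 0.09, the narrowest control range after that of Taf1c at 0.08. Without miR-Control replicate 3 all 10 genes were lower, beside 41% of named genes, and their median was -0.24. The groups then did not overlap in 5, namely Polr1a, Polr1b, Polr1d, Polr1e and Rrn3, beside 13.6% of named genes.

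Over the 6 arrays the other members followed Polr1b to different degrees. Pearson's r with Polr1b was highest for Rrn3 at 0.85, then 0.77 for Polr1a, 0.75 for Polr1d and 0.72 for Taf1c, and it was -0.18 for Taf1b. These coefficients share the difference between the groups and the arrays, and are descriptions over 6 points. Outside the set, the named genes with the most similar profile were Napg, a factor of vesicle fusion, at 0.998, Gopc, a Golgi PDZ-domain protein, at 0.993, and Ano8, of the anoctamin family, at 0.991. Pearson's r does not measure size: their log2 fold changes were -0.42, -0.67 and -0.18, against -1.03 for Polr1b. In all, 239 of 20253 named genes outside the set had an r above 0.9.

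The counterparts of Polr1b in the other nuclear polymerases showed smaller differences. Polr2b, the second-largest subunit of polymerase II, had 10.95, 11.27 and 10.90 with miR-128, against 11.17, 11.35 and 10.88 with miR-Control, a log2 fold change of -0.10 (SE 0.15, adjusted p = 0.972 in limma). Polr3b, that of polymerase III, had 9.49, 9.50 and 9.44, against 9.46, 9.62 and 9.33, a log2 fold change of 0.00919 (SE 0.11, adjusted p = 0.997 in limma). Polr3a, the polymerase III counterpart of Polr1a, differed by -0.29 (SE 0.13, adjusted p = 0.714 in limma), close in size to Polr1a at -0.28. The difference between Polr1b and its counterparts was not tested. Polr2a had no row under that name.

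The remaining polymerase I genes did not share the size seen in Polr1b. Of 4 further subunits of the enzyme and of SL1, 3 were lower, with a median of -0.09, and none passed. Without miR-Control replicate 3 the count was again 3 of 4, with a median of -0.11. Polr1h, the subunit that aids RNA cleavage, had 8.31, 8.49 and 8.03 with miR-128, against 8.80, 8.79 and 8.26 with miR-Control, a log2 fold change of -0.34 (SE 0.18, adjusted p = 0.773 in limma). Taf1d, a further SL1 subunit, differed by -0.14 (SE 0.15, adjusted p = 0.948) in its row of highest mean, which is that of a non-coding transcript. Taf1d had 3 rows, and the others are not described here.

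Of the 5 subunits shared by polymerases I, II and III, 3 were lower, with a median log2 fold change of -0.12, and none passed. The median turned to 0.08, with 2 of 5 lower, when miR-Control replicate 3 was left out. Polr2e was at -0.37 (SE 0.20, adjusted p = 0.781 in limma). Polr2h had 5.33, 5.86 and 5.77 with miR-128, against 5.93, 4.77 and 8.70 with miR-Control, so that miR-Control replicate 3 alone set its log2 fold change of -0.81 (SE 0.80, adjusted p = 0.937). The array means of this list carry that value.

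Of the polymerase III subunits 5 of 11 were lower, with a median log2 fold change of 0.00919, but without miR-Control replicate 3 this became 8 of 11 and a median of -0.07. Of the polymerase III factors 14 of 16 were lower, with a median of -0.10, and 16 of 16, with a median of -0.14, without that array. None passed in either list. Polr3g, an alternative subunit known from pluripotent and tumour cells, was at -0.36 (SE 0.16, adjusted p = 0.698 in limma). The TFIIIC subunits Gtf3c6 and Gtf3c1 were at -0.37 (SE 0.14, adjusted p = 0.629) and -0.26 (SE 0.11, adjusted p = 0.677), each with no miR-128 array as high as a control. All 6 polymerase II subunits with a row were lower, with a median of -0.13, and none passed. Their groups overlapped in every case. Without miR-Control replicate 3 the median was -0.29 and the groups did not overlap in 4 of 6, beside 13.6% of named genes. For the polymerase III factors the groups did not overlap in 3 of 16, beside 5.27% of named genes. Without that array this was 11 of 16, beside the same 13.6%. Polr2d was at -0.40 (SE 0.18, adjusted p = 0.702 in limma) and Polr2i at -0.20 (SE 0.14, adjusted p = 0.876).

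Among 22 regulators and chromatin factors of the ribosomal DNA 15 were lower, with a median of -0.05, and none passed. When miR-Control replicate 3 was left out, 16 of 22 were lower and the median was -0.11. Ncl, nucleolin, the abundant nucleolar RNA-binding protein, had 11.64, 11.93 and 11.84 with miR-128, against 12.38, 12.14 and 12.02 with miR-Control, a log2 fold change of -0.38 (SE 0.13, adjusted p = 0.594 in limma). Ddx21, a nucleolar helicase, was at -0.35 (SE 0.14, adjusted p = 0.651), and in both genes the groups did not overlap. Every miR-128 array was below every control for 4 of the 22, beside 5.27% of named genes. Without miR-Control replicate 3 this was 7 of 22, beside 13.6% of named genes. Tbp, the TATA-binding protein of SL1, was at -0.17 (SE 0.16, adjusted p = 0.931), Tcof1, which encodes treacle, at -0.10 (SE 0.14, adjusted p = 0.964), and Ttf1, the terminator of polymerase I, at -0.09 (SE 0.13, adjusted p = 0.965). Myc, a general activator of ribosome production, was at 0.06 (SE 0.10, adjusted p = 0.979) in its row of highest mean. Myc had 4 rows and Tcof1 had 2, and their other rows are not described here. Over these 64 related genes 46 were lower, beside 43.8% of named genes, and 0 passed in limma. An unadjusted p under 0.05 in limma was found for 7 of the 64, beside 1444 of all 20263 named genes.

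**Figure D3:**
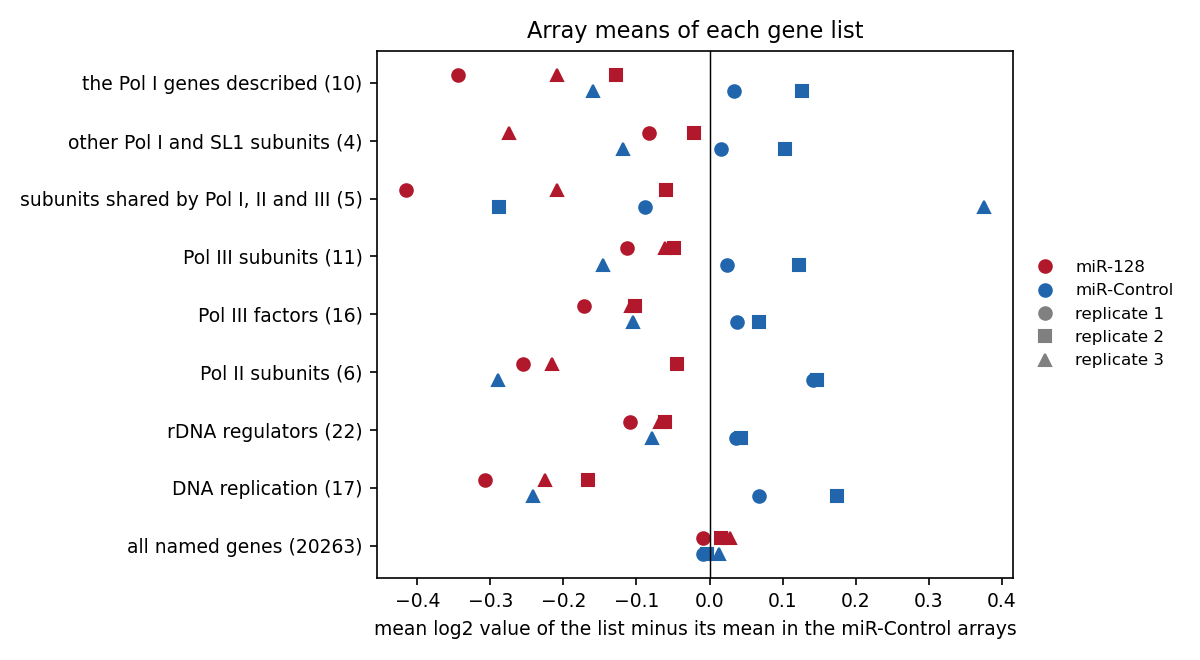
Mean log2 value of each gene list on each array, minus the mean of the same list over the 3 miR-Control arrays, with miR-128 arrays in red, miR-Control arrays in blue, symbols for the replicate number and the number of genes in brackets. For the 10 polymerase I genes the miR-128 arrays lie at -0.34 to -0.13 and the controls at -0.16 to 0.13, and miR-Control replicate 3 lies low in most lists but high, at 0.38, for the shared subunits.

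Averaged over the 10 genes, the miR-128 arrays lay at -0.34, -0.13 and -0.21 in replicates 1 to 3 relative to the control mean, against 0.03, 0.13 and -0.16 in the controls. The groups overlapped through miR-Control replicate 3. Without Polr1b the means of the other 9 genes were -0.24, -0.04 and -0.13 with miR-128, against 0.04, 0.14 and -0.18 with miR-Control, so that this array was lower than 2 of the 3 miR-128 arrays. Other lists had a similar order of arrays. The polymerase III factors had array means of -0.17, -0.10 and -0.11 with miR-128, against 0.04, 0.07 and -0.10 with miR-Control. The ribosomal DNA regulators had -0.11, -0.06 and -0.07, against 0.04, 0.04 and -0.08. DNA replication genes, a list of 17 with a row, had a similar order too. All 17 were lower, with a median of -0.23. The array means of these 17 were -0.31, -0.17 and -0.23 with miR-128, against 0.07, 0.17 and -0.24 with miR-Control. Their groups did not overlap in 5 of 17, beside 5.27% of named genes. Without miR-Control replicate 3 the median was -0.34 and the groups did not overlap in 15 of 17, beside 13.6% of named genes. Their part in the values of the polymerase I genes was not tested.

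Of the cell type markers, 6 of 6 astrocyte genes and 6 of 7 oligodendrocyte lineage genes were higher with miR-128. The medians were 0.15 and 0.25 in log2 fold change, or 0.25 and 0.28 without miR-Control replicate 3, when all 7 of the oligodendrocyte lineage were higher. The astrocyte array means were 0.15 to 0.26 with miR-128, against -0.05 to 0.08 with miR-Control, and those of the oligodendrocyte lineage were 0.16 to 0.29, against -0.09 to 0.05. Neural stem cell markers were lower in 5 of 10, with array means of -0.07 to 0.06, against -0.06 to 0.06, and in 4 of 10 without miR-Control replicate 3. Neuronal markers were higher in 7 of 10, microglial markers in 6 of 6 and vascular and mesenchymal markers in 4 of 8, beside 11387 of all 20263 named genes. Without that array these counts were 7 of 10, 6 of 6 and 6 of 8, while 41% of named genes were lower. The microglial median log2 fold change was 0.05, and 0 of these 6 lay above the level of the median named gene in the controls. No gene of these lists passed in limma, and their part in the polymerase I values was not tested.

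The table held a row for 28S ribosomal RNA, a product of polymerase I, which was chosen after its values were seen. Rn28s1 had 14.20, 14.12 and 14.25 with miR-128, against 14.18, 13.92 and 14.20 with miR-Control, a log2 fold change of 0.09 (SE 0.11). The groups overlapped. These values lie near the top of the range of the table. The rate at which polymerase I made ribosomal RNA was not measured.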

How the data were processed

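The authors deposited log2 expression values. Per the submitters' processing notes, RMA and the affy package made them, without stated versions. The rows are RefSeq transcripts. Probe grouping and genome build were not given in the sources used here, and no detection p was used, so signal over background is unknown. RefSeq accessions were matched without version to the gene table of GRCm38.p6, for names only, which named 25343 of 32025 rows.

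Groups came from the sample titles. limma 3.58.1 in R 4.3.3 (lmFit, eBayes) compared miR-128 with miR-Control on all 6 arrays, unpaired, two-sided, with no filter, and with Benjamini-Hochberg adjustment over all rows at 0.05. The script was tested on simulated data. Each fold change is miR-128 over miR-Control, and each gene is given by its row of highest mean. The members, the gene lists and the naming rule were chosen with earlier results of these data known. Named are all members, the 2 genes of smallest p in each related polymerase or ribosomal DNA list, fixed counterparts and factors, and the 3 genes most correlated with Polr1b. Alternatives were quantile normalization, median centring, a level filter, the replicate block, a variance trend, array weights, averaging a gene's rows and leaving out each array.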

Additional observations from a re-analysis of the deposited data

How the results depend on the processing

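Under quantile normalization, median centring, array weights and the omission of each array in turn, Polr1a, Polr1b, Polr1c, Polr1d, Polr1e, Rrn3 and Taf1c kept a lower mean with miR-128, Polr1b between -1.11 and -0.91 in log2 fold change. For Polr1c the difference all but vanished, at -0.00114, without miR-128 replicate 1, and for Taf1c it stayed small, at -0.09 to -0.03. The sign turned in 7 of these 90 values: for Taf1a to 0.0738 without miR-Control replicate 2, and to 0.0120 or 0.00900 when miR-128 replicate 1 or 3 was left out; for Taf1b to -0.0843 without miR-Control replicate 3, to -0.0142 without miR-128 replicate 2 and to -0.0156 with array weights; and for Ubtf to 0.0217 without miR-Control replicate 1. With 1 array left out, the values ranged from -0.15 to 0.07 for Taf1a, -0.08 to 0.24 for Taf1b and -0.12 to 0.02 for Ubtf. In the same fits, 8 to 10 of the 10 genes were lower and their median ranged from -0.26 to -0.09. Rows past an adjusted p of 0.05 in limma numbered 0 with all rows, 4 among the 16012 rows above the median level, where fewer rows are tested, and 24 with array weights, for which the cause was not tested; in both, 1 member, Polr1b, was among them, by the comparison it was chosen on. No related gene passed under any alternative. The labels state no pairing, and same-numbered arrays had deviations correlated at -0.00279, 0.17 and 0.05. Only for replicate 2 was the same-numbered control the best match. With 3 arrays per group these values cannot tell whether the samples were paired. With the replicate block 0 rows passed. The level filter, the block and the variance trend leave a fold change as it is by construction, and averaging rows touches only Ubtf. Array number, 3 per group, limits what can be told apart.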
